A study of Mus musculus with 32 samples.

Results

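The 9 genes described here encode the coat and assembly proteins of lipid droplets: the perilipins Plin1, Plin2, Plin3, Plin4 and Plin5, the fusion protein gene Cidec, the fat-storage-inducing genes Fitm1 and Fitm2, and Bscl2, which encodes seipin. They were taken by gene symbol from a deposited table of 20560 genes, and all 9 were found. They were followed in 32 RNA sequencing libraries of 3T3-L1 cells, preadipocytes from the mouse that become fat-storing cells when given hormones. The control cells, labelled WT, carried a scramble short hairpin RNA (shRNA; shCtrl), and the knockdown cells, labelled Zbtb9 knockdown, carried shRNA 1 or shRNA 2 against Zbtb9, a gene for a zinc finger protein with a BTB domain. At each of days 0, 3, 7 and 11 there were 4 control libraries, 2 libraries of shRNA 1 and 2 of shRNA 2, so the knockdown was measured in 4 libraries a day. All cells, controls included, received dexamethasone, 3-isobutyl-1-methylxanthine and insulin from day 0, insulin alone from day 3 and medium without additions from day 7. The labels call the cells preadipocytes at day 0, premature adipocytes at days 3 and 7 and mature adipocytes at day 11. How the shRNAs were delivered, and whether a line is a clone or a pool, is not given in the sources used here.

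A lipid droplet is a core of triglyceride and sterol ester under a single layer of phospholipid, and it starts as a lens of fat between the leaflets of the endoplasmic reticulum. Seipin forms a ring at that site and lets the droplet grow, while the FIT proteins act in the endoplasmic reticulum membrane and keep droplet budding in order. Perilipins then coat the surface. Plin2 and Plin3 are made in most cells, Plin1 and Plin4 mainly in white fat cells, and Plin5 mainly in muscle, heart and brown fat. Perilipin 1 holds the lipase co-activator ABHD5 until a hormone signal releases it, and CIDEC (also called FSP27) sits at contacts between droplets and lets fat pass from the smaller to the larger one. Variants of the genes for seipin, perilipin 1 or CIDEC can cause forms of lipodystrophy in people.

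Plin1 and Cidec are the members with the largest changes below, so the DNA before their start sites is shown. The stretches come from RefSeq (GRCm38.p6), are written 5′ to 3′ on the minus strand on which both genes lie, and leave out every base of an annotated exon. Capitals mark matches to TTGCNNAA, the form of a C/EBP site, or to AGGNCA, a half-site of the kind bound by PPARG with RXR. Both strands were searched, and positions count from the start site, with -1 the last base before it. The Plin1 stretch is chr7:79732904-79733026, from position -250 to -128, and holds TTGCCTAA at -187. The bases after it begin in an annotated exon and are not printed. They hold TTGCCCAA at -58 and the half-site TGCCCT, read on the other strand, at -90.
Plin1: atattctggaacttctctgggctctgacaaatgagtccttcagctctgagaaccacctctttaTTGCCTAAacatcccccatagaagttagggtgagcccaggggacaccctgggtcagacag
Cidec has a pair of annotated starts. The window before the upstream start is chr6:113435761-113436010 and holds the half-site TGCCCT, read on the other strand, at -214.
Cidec upstream start: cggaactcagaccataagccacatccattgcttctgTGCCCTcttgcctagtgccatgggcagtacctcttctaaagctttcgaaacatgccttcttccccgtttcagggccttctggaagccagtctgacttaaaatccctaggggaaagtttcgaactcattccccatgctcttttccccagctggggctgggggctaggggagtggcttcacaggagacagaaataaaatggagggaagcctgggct
The window before the downstream start lies inside the gene at chr6:113434765-113435014 and holds TTGCTCAA at -198.
Cidec downstream start: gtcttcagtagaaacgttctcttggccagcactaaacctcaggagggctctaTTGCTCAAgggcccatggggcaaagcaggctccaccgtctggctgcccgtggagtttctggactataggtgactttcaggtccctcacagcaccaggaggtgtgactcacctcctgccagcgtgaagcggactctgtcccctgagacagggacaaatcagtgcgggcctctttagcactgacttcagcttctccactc
A TTGCNNAA match was present in 10.797% of 32851 promoter windows of the same 300-base length, an AGGNCA half-site in 57.225%, and a direct repeat of the half-site with 1 base between in 0.381%. No window of any of the 9 genes held the direct repeat, which says only that these letters are not in these windows. Among the 9 genes, TTGCNNAA occurred only in windows of Plin1 and Cidec, for Cidec only in the downstream one. Over all genes, 12.204% of 27025 held it in a window. The matches are a description of the sequence.

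Each library held 22280363 to 31073726 reads in genes. At day 11 the control libraries were all deeper, at 26486057 to 31073726 reads against 22839507 to 25511855. The titles call the replicates biological without naming separate cultures, so p-values measure the spread between these libraries. Zbtb9 itself was covered by 6 to 23 reads in control libraries and 0 to 17 in knockdown libraries. Its mean level in the knockdown was 61.9%, 50.6%, 42.7% and 54.5% of control at days 0, 3, 7 and 11, with two-sided exact permutation p-values of 0.029, 0.114, 0.029 and 0.143, where 0.029 is the smallest that 4 against 4 allows. With limma Zbtb9 was not called at day 0 (-0.21, adjusted p = 0.271) or day 11 (-0.28, adjusted p = 0.173) and did not pass the filter at day 3. It was called at day 7 (-0.35, adjusted p = 0.0288), a call lost without shRNA 1 replicate 1, shRNA 2 replicate 2 or shCtrl replicates 2 or 3 (adjusted p from 0.0556 to 0.0789), and it was called at day 11 without shRNA 1 replicate 2 (-0.42, adjusted p = 0.0323). Of its exon bases, 84.4% are shared on the same strand with another annotated gene. How reads on shared bases were counted was not checked, so its true level may differ from these counts. At day 11 shRNA 1 and shRNA 2 stood at 88.5% and 20.55% of control. The library labelled shRNA 1 replicate 2 at day 11 held 19.3 normalised reads of Zbtb9, within the control range of 12.1 to 19.96. Its target level, from few reads, thus goes against its label. Its Plin1 and Cidec levels, given below, lay above those of every day 11 control library. At day 3, 2 knockdown libraries (7.41 and 8.99) lay within the control range of 6.35 to 12.6. Of the adipocyte markers, Adipoq, Cfd, Retn and Slc2a4 had at most 3 reads in every day 0 library. At days 7 and 11 these 4 were at 86.0 to 3957 normalised reads in control and 472 to 16336 in knockdown libraries, while Lep never rose above 5.80. The labels name no batch.

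Values below are normalised reads: whole reads rebuilt from the deposited log2 values and divided by the library's size factor. Changes on the log2 scale, their standard errors (SE) and adjusted p-values are from limma on the deposited values, and "called" means an adjusted p under 0.05, over all genes tested. Folds are ratios of mean normalised reads. The deposited log2 values pull low genes towards their mean, so a log2 change can be smaller than the fold beside it. Plin5 and Fitm1 had 0 to 3 reads in each of the 32 libraries. At that depth no difference in them was detectable, they passed no filter, and counts of calls below are over the other 7 members unless stated. Plin1 had 0 to 3 reads in every day 0 library, and Cidec had 0 reads in 7 of the 8 and 4 in the other. With under 10 reads in each, neither gene is given an effect at day 0.

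As control cells differentiated, mRNAs of Plin1 and Cidec appeared from day 3 beside those of Plin2, Plin3 and Plin4, which were present at day 0. Only mRNA was measured, not protein or droplets. Plin1 (ENSMUSG00000030546, chromosome 7 from 79720218 to 79732903, minus strand, GRCm38) rose from 0 or 1 read at day 0 to 217, 175, 208 and 174 normalised reads in the 4 control libraries at day 3, at least 71.2-fold higher with 3 reads per library as the floor. It stood at 1733, 1440, 1529 and 1592 at day 7, which was 8.13-fold above day 3 (log2 change 2.86, SE 0.08, adjusted p = 1.74e-25). At day 11 it stood at 1425, 1199, 1400 and 1280, lower than at day 7 by a log2 change of -0.24 (adjusted p = 0.0148). That last call was lost without shCtrl day 7 replicate 1 (adjusted p = 0.0758) or shCtrl day 11 replicate 2 (adjusted p = 0.0743), when all 32 libraries were fitted together (adjusted p = 0.105) and on log2 of rebuilt normalised reads + 1 (adjusted p = 0.169).

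Cidec (ENSMUSG00000030278, chromosome 6 from 113424634 to 113435760, minus strand) peaked more sharply. Control libraries held 160, 165, 165 and 144 normalised reads at day 3 and 2762, 2493, 2310 and 2587 at day 7, a 16.02-fold rise (log2 change 3.79, SE 0.09, adjusted p = 2.51e-28). By day 11 Cidec had dropped to 635, 462, 522 and 512, 4.77-fold below day 7 (log2 change -2.18, SE 0.09, adjusted p = 4.33e-21). Every day 11 control library lay above every day 3 library and below every day 7 library.

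Plin2, the coat protein of small droplets in most cells (ENSMUSG00000028494, chromosome 4 from 86648386 to 86670060, minus strand), was already abundant at day 0 and rose at each step. Control libraries held 3590, 3473, 3441 and 3577 normalised reads at day 0, 7093, 6353, 6855 and 6106 at day 3, 8335, 7641, 9091 and 8288 at day 7, and 9711, 11029, 10833 and 10004 at day 11. The 4 days did not overlap. The log2 changes against day 0 were 0.87, 1.201 and 1.51 at days 3, 7 and 11, and the steps from day 3 to 7 (0.33) and from day 7 to 11 (0.31) were called too.

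Plin3, which moves between cytosol and young droplets, and Plin4, a long perilipin with a repeated helical stretch, lie close together on the minus strand of chromosome 17, with Plin5 beside Plin4. Plin3 (ENSMUSG00000024197, 56277476 to 56292873) held 3599, 3683, 3613 and 3661 normalised reads in control libraries at day 0 and dipped to 2320, 2415, 2546 and 2502 at day 3 (log2 change -0.55, SE 0.04, adjusted p = 2.44e-15). It then rose to 5272, 5529, 5573 and 5038 at day 7, 2.19-fold above day 3, and stood at 4799, 4528, 4486 and 4462 at day 11. Plin4 (ENSMUSG00000002831, 56100591 to 56109803) was not called changed by day 3: it held 4492, 4852, 4715 and 5040 normalised reads at day 0 and 4918, 4849, 4505 and 4642 at day 3 (log2 change -0.01, 95% interval -0.10 to 0.07), although with libraries scaled to equal totals it was called lower (-0.14, adjusted p = 0.00383). It rose 3.26-fold from day 3 to 15670, 16409, 14917 and 14611 at day 7 (log2 change 1.65, SE 0.04, adjusted p = 3.41e-27). At day 11 it was 15034, 13449, 14084 and 14993, and the difference from day 7 was not called (log2 change -0.10, adjusted p = 0.0501). Without any 1 of 6 control libraries (replicates 1 and 4 of days 0 and 11 and replicates 3 and 4 of day 7) it was called, with an adjusted p from 0.0228 to 0.0451, as it was with a filter of 50 (0.0471), equal medians (0.0293) or voom (0.0412).

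The assembly genes had other courses. Fitm2 (ENSMUSG00000048486, chromosome 2 from 163466379 to 163472629, minus strand; 5.7% of its exon bases overlap an annotated gene on the opposite strand) was an early gene: control libraries held 570, 621, 569 and 555 normalised reads at day 0 and 5920, 5910, 5663 and 5645 at day 3, a 9.99-fold rise (log2 change 3.18, SE 0.04, adjusted p = 1.11e-35). It then fell to 2602, 2491, 2609 and 2613 at day 7 and 1428, 1523, 1560 and 1401 at day 11, by log2 changes of -1.12 and -0.77. Even so, day 11 remained 2.55-fold above day 0. Bscl2 (ENSMUSG00000071657, chromosome 19 from 8837467 to 8848683, plus strand; 10.8% of its exon bases overlap other annotated genes) moved least, with 147, 135, 115 and 120 normalised reads at day 0, 216, 235, 180 and 192 at day 3, 212, 202, 197 and 172 at day 7, and 176, 179, 163 and 162 at day 11. Its log2 changes against day 0 were 0.57, 0.51 and 0.34, all called, while the steps between days 3 and 7 and between days 7 and 11 were not.

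In control cells 5 of the 7 members were called higher and 1 lower at day 3 against day 0, where 38.3% and 38.2% of all genes were. All 7 were called higher at day 7 (background 33.3% higher, 35.8% lower) and at day 11 (33.0% and 31.6%). From day 3 to 7, 5 were higher and 1 lower (37.6% and 36.6% of all genes), and from day 7 to 11, 1 was higher and 4 lower (28.9% and 26.1%). The counts against day 0 include Plin1 and Cidec, with under 10 reads there. Over the other 5 members, 3 were called higher and 1 lower at day 3, and all 5 higher at days 7 and 11. The median log2 change of the members from day 3 to 7 was 1.09, against 0.0073 for all genes tested.

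**Figure D1:**
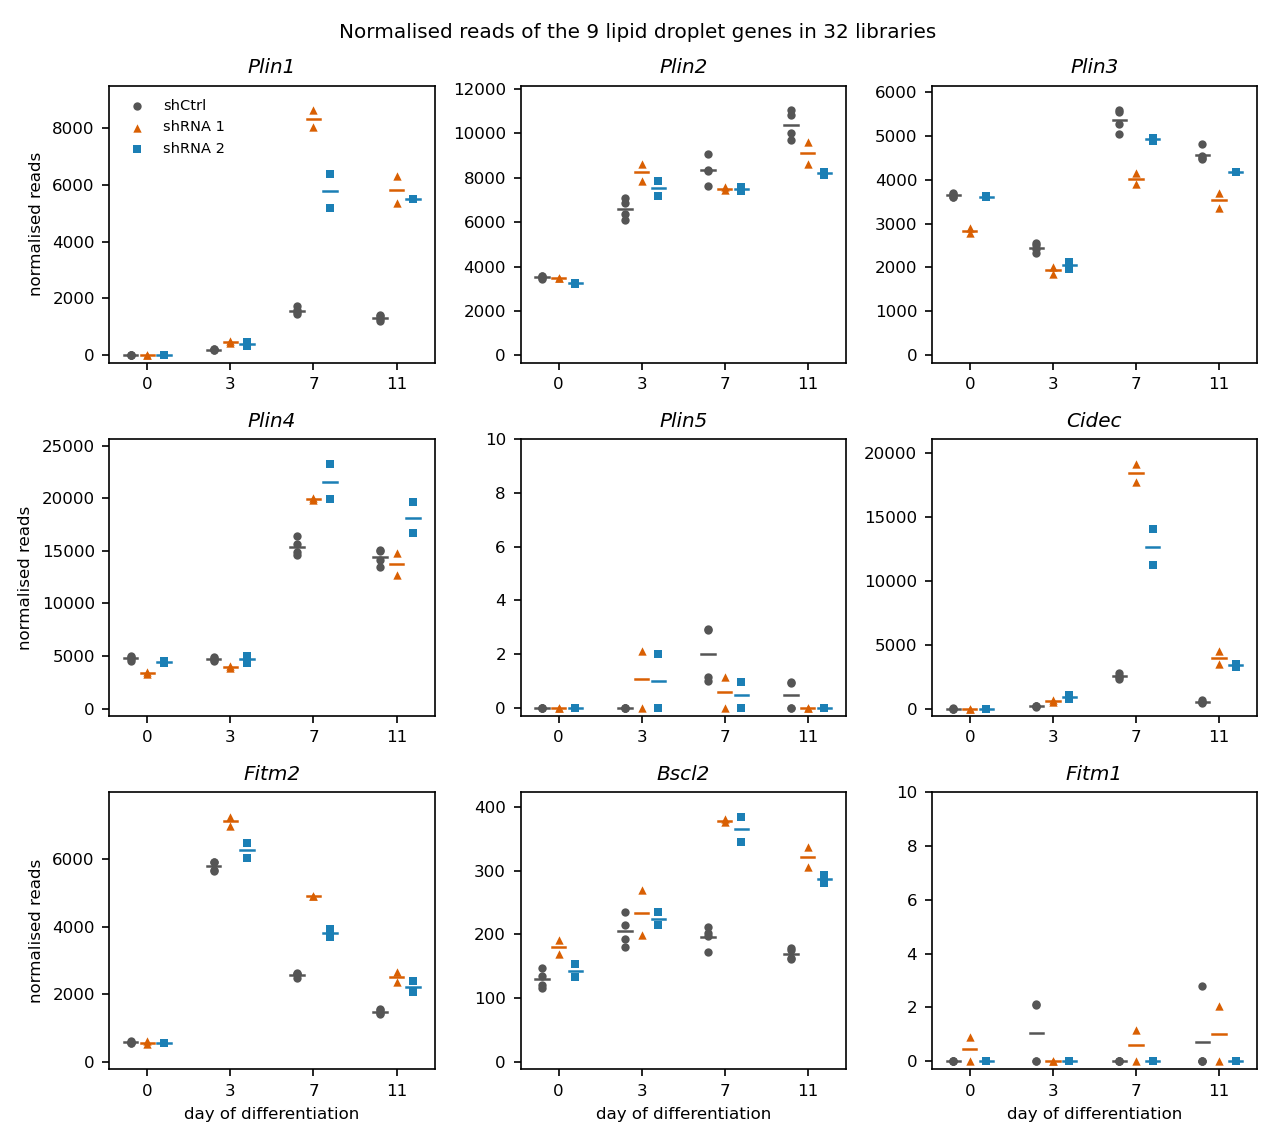
Normalised reads of each of the 9 genes (y axis, linear, own scale per gene) by day of differentiation (x axis); each point is 1 library, bars are group means, circles are shCtrl (4 a day), triangles shRNA 1 and squares shRNA 2 (2 each a day). Plin1 and Cidec are near 0 at day 0 and highest at day 7 in both knockdown groups, Fitm2 peaks at day 3, and Plin5 and Fitm1 stay at 3 reads or fewer.

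Knockdown of Zbtb9 went with more Plin1 mRNA at days 3, 7 and 11. The control values are those above. Knockdown libraries held 416 and 521 normalised reads with shRNA 1 and 313 and 468 with shRNA 2 at day 3, a mean of 429 ± 88.6 (SD, n = 4) against 193 ± 22.2 (n = 4). At day 7 they held 8621 and 8036 with shRNA 1 and 5189 and 6387 with shRNA 2, on average 7058 ± 1564 against 1574 ± 123. At day 11 they held 6314 and 5353 with shRNA 1 and 5511 and 5489 with shRNA 2, on average 5667 ± 437 against 1326 ± 106. Every knockdown library lay above every control library of its day. The log2 changes were 1.05 (SE 0.13, adjusted p = 0.000118), 2.07 (SE 0.15, adjusted p = 6.06e-06) and 2.02 (SE 0.07, adjusted p = 2.16e-08). In bulk RNA, more cells of a type and more RNA per cell cannot be told apart.

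Cidec showed the largest difference of the members on each of these days. At day 3 it stood at 643 and 511 normalised reads with shRNA 1 and 737 and 1029 with shRNA 2, against 158 ± 10.3 (SD, n = 4) in control (log2 change 2.01, SE 0.17, adjusted p = 3.54e-05). At day 7 it reached 19195 and 17739 with shRNA 1 and 11231 and 14108 with shRNA 2, against 2538 ± 189 (2.51, SE 0.16, adjusted p = 5.02e-06). By day 11 it had dropped in both arms, to 4471 and 3497 with shRNA 1 and 3509 and 3249 with shRNA 2, against 533 ± 73.4 (2.69, SE 0.11, adjusted p = 1.55e-07). The ratio of mean normalised reads was 4.61, 6.13 and 6.91 at days 3, 7 and 11. The drop from day 7 to 11 was 4.23-fold in the knockdown and 4.77-fold in control, so the lowest knockdown library at day 11 (3249) still lay above the highest control library at day 7 (2762).

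The markers of fat cells and of other cell types are given here as sums. The summed level of the 13 adipocyte markers was 29445 to 30820 normalised reads in control and 32437 to 33837 in knockdown libraries at day 0, 48470 to 55020 and 72816 to 94279 at day 3, 60139 to 64411 and 149832 to 211867 at day 7, and 71579 to 80213 and 144132 to 165854 at day 11. The arms did not overlap on any day, day 0 included, and the control sum was higher at day 11 than at day 7, when Plin1 and Cidec were lower. The 10 preadipocyte and fibroblast markers summed to 502512 to 523014 in control and 406550 to 483602 in knockdown libraries at day 0, 220698 to 244396 and 199707 to 271412 at day 3, 356555 to 396573 and 308966 to 339875 at day 7, and 461472 to 534472 and 390706 to 467737 at day 11. They were thus lower without overlap at days 0 and 7 and overlapped at days 3 and 11. Of 6 brown fat markers 5 were in the table, with sums of 542 to 652 and 573 to 655 at day 0, 320 to 351 and 448 to 516 at day 3, 263 to 307 and 182 to 307 at day 7, and 438 to 516 and 151 to 550 at day 11. Only the day 3 sums did not overlap, and Ppargc1a made up most of them (303 to 350 and 433 to 507), with Cidea at 3 reads or fewer there. Of 10 muscle markers 6 were in the table. Their sums overlapped at day 0 (116 to 149 and 78.2 to 137) and day 3 (120 to 169 and 120 to 190). They did not overlap at day 7 (397 to 464 and 638 to 716) or day 11 (320 to 366 and 528 to 599), with Acta1 at 3 reads or fewer in both arms on those 2 days. Of 8 macrophage markers 6 were in the table, with sums of 242 to 342 and 355 to 736 at day 11, while Ptprc had 3 reads or fewer in every group. Itgam did too, except in the knockdown at day 11, where it reached 9.08 normalised reads. The 5 endothelial markers summed to 5.29 to 48.7 over all libraries. The part of the marker-bearing cells in the members' changes was not tested.

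The assembly genes were higher in the knockdown as well, mostly from day 7. Fitm2 stood at 6979 and 7242 normalised reads with shRNA 1 and 6035 and 6467 with shRNA 2 at day 3 (log2 change 0.20, SE 0.05, adjusted p = 0.0123). With the replicate number as a block, this day 3 call of Fitm2 was lost (0.17, adjusted p = 0.225). At day 7 it stood at 4917 and 4899 with shRNA 1 and 3679 and 3927 with shRNA 2, a mean of 4355 ± 646 against 2579 ± 58.8 (0.72, SE 0.08, adjusted p = 7.72e-06). At day 11 the values were 2652 and 2357 with shRNA 1 and 2072 and 2378 with shRNA 2, against 1478 ± 75.9 (0.65, SE 0.07, adjusted p = 4.49e-05). None of these libraries overlapped the controls, and the ratio of means grew from 1.15 at day 3 to 1.69 at day 7 and 1.60 at day 11.

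Bscl2 was not called at day 3, with 269 and 199 normalised reads for shRNA 1 and 215 and 235 for shRNA 2, against 180 to 235 in control. All but the shRNA 1 library at 269 lay within or at the edge of the control range. It was called at day 7, with 376 and 382 for shRNA 1 and 346 and 385 for shRNA 2 against 196 ± 16.8 in control (log2 change 0.82, SE 0.09, adjusted p = 1.77e-06). At day 11 it held 306 and 337 with shRNA 1 and 293 and 281 with shRNA 2, against 170 ± 8.84 (0.73, SE 0.09, adjusted p = 6.95e-05). Both days were free of overlap, and the ratios of means were 1.90 and 1.79. In control cells the largest log2 change of seipin mRNA between the days compared was 0.57.

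The broadly made perilipins moved little. Plin2 was higher in the knockdown at day 3, with 7873 and 8604 normalised reads for shRNA 1 and 7193 and 7841 for shRNA 2 (log2 change 0.25, SE 0.06, adjusted p = 0.00601). It was lower at day 7, with 7455 and 7560 for shRNA 1 and 7421 and 7590 for shRNA 2 (-0.14, SE 0.05, adjusted p = 0.0357), a call lost without any 1 of 5 libraries (replicate 1 of each shRNA or shCtrl replicates 1, 3 or 4), with an adjusted p from 0.0578 to 0.125, without the filter on low values (adjusted p = 0.0532) and without trend and robust settings (adjusted p = 0.0761). It was lower at day 11 too, with 8626 and 9610 for shRNA 1 and 8136 and 8264 for shRNA 2 against 9711 to 11029 in control (-0.26, SE 0.07, adjusted p = 0.0115). With the replicate number as a block, the Plin2 changes at days 3, 7 and 11 were 0.22, -0.086 and -0.25. None of them was then called (adjusted p = 0.14, 0.372 and 0.108).

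Plin3 was lower in the knockdown at each of these days. With shRNA 2 alone it was called lower only at day 3, and with shRNA 1 it was lower before induction too (both below). At day 3 it stood at 1851 and 2015 normalised reads with shRNA 1 and 2131 and 1964 with shRNA 2, against 2320 to 2546 in control (log2 change -0.29, SE 0.05, adjusted p = 0.00091). At day 7 it held 4143 and 3891 with shRNA 1 and 4953 and 4877 with shRNA 2, against 5038 to 5573 (-0.26, SE 0.07, adjusted p = 0.00743), and at day 11 3704 and 3353 with shRNA 1 and 4184 and 4171 with shRNA 2, against 4462 to 4799 (-0.24, SE 0.07, adjusted p = 0.0195). At day 11 the call did not hold without shRNA 1 replicate 1 (adjusted p = 0.0509) or shCtrl replicate 1 (adjusted p = 0.0651). With the replicate number as a block, the Plin3 calls of days 3, 7 and 11 were lost (adjusted p = 0.083, 0.0807 and 0.134). Its mean in the knockdown was 81.4%, 83.4% and 84.3% of control.

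Plin4 changed place with the day. At day 3 the knockdown was not called, with 3831 and 4020 normalised reads for shRNA 1 and 4372 and 4963 for shRNA 2 (log2 change -0.14, adjusted p = 0.142), but it was with the shRNAs as separate groups (adjusted p = 0.00342) or without shRNA 2 replicate 2 (-0.21, adjusted p = 0.00511). At day 7 all knockdown libraries were above control, with 19840 and 19996 for shRNA 1 and 19885 and 23280 for shRNA 2 (0.42, SE 0.06, adjusted p = 3.5e-05). At day 11 the arms overlapped, with 14760 and 12725 for shRNA 1 and 16710 and 19602 for shRNA 2, and the change was 0.13 (95% interval -0.11 to 0.37, adjusted p = 0.405).

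Without the library labelled shRNA 1 replicate 2, the day 11 log2 changes were 2.05 for Plin1, 2.71 for Cidec, 0.65 for Fitm2, 0.68 for Bscl2, -0.31 for Plin2 and -0.18 for Plin3 (adjusted p from 6.29e-09 to 0.0282), so these 6 calls were made without it too. For Plin4 the change was then 0.23 in place of 0.13 and still not called (adjusted p = 0.0552), and without shRNA 2 replicate 2 it was 0.026 (adjusted p = 0.855).

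Before induction none of the 5 members with 10 or more reads in a day 0 library was called, and 3.25% of all genes were. Plin1 and Cidec, with under 10 reads there, are outside that count. With voom on rebuilt reads Plin1 was called with shRNA 1 against control at day 0 (2.16, adjusted p = 0.0499), from 2 and 3 reads against 0 or 1. With limma, 2 members had an unadjusted p under 0.05 at day 0: Plin4, with a log2 change of -0.29 (95% interval -0.50 to -0.08, adjusted p = 0.127), and Bscl2, with 0.27 (0.02 to 0.51, adjusted p = 0.217). The voom fit called 0 members there, while a fit with the shRNAs as separate groups called 3, where it called 25.3% of all genes, and without shRNA 2 replicate 2 Plin4 was called (-0.36, adjusted p = 0.0435). Their values were 3313 and 3469 normalised reads with shRNA 1 and 4374 and 4495 with shRNA 2 for Plin4, and 191 and 170 with shRNA 1 and 133 and 154 with shRNA 2 for Bscl2. At day 3, 4 members were called higher and 1 lower, where 14.6% and 12.1% of all genes were. At day 7 the members split into 5 higher and 2 lower (24.9% and 22.6%), and at day 11 into 4 higher and 2 lower (16.8% and 16.2%). The median log2 change was -0.065 over those 5 members at day 0 and 0.20, 0.72 and 0.65 over 7 members at days 3, 7 and 11, beside -0.006, 0.0046, 0.0062 and -0.0122 for all genes tested. The 4 days use separate libraries, and all comparisons within a day share its 4 control libraries.

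**Figure D2:**
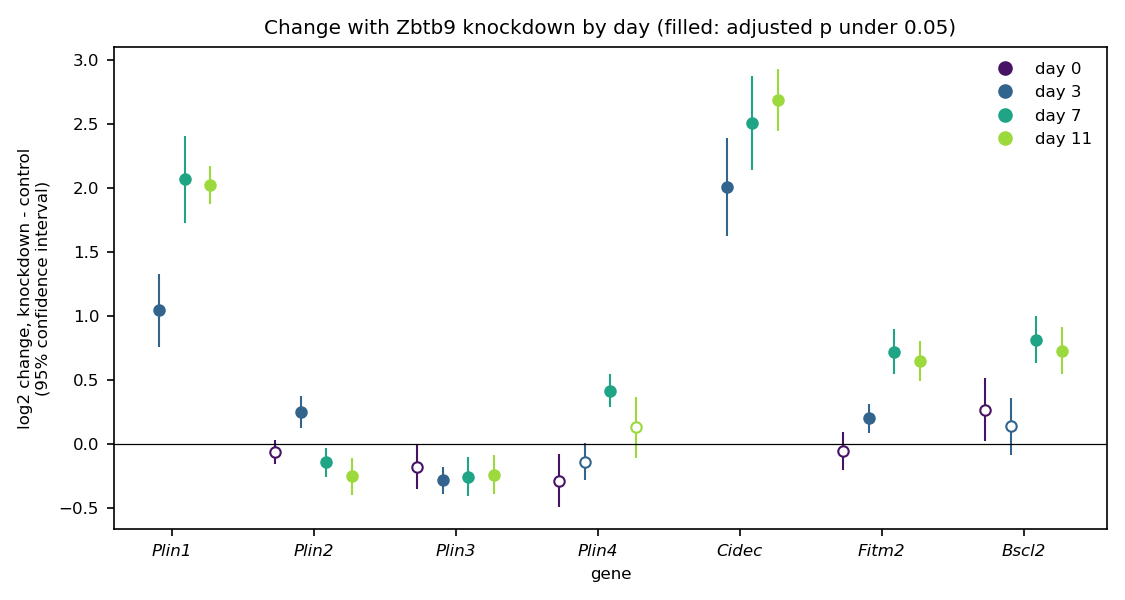
Log2 change of knockdown against control (y axis) for the 7 members tested (x axis) at days 0, 3, 7 and 11, with 95% confidence intervals; filled points have an adjusted p under 0.05, and Plin1 and Cidec have no day 0 point because they had under 10 reads there. Cidec and Plin1 stand between 1.05 and 2.69, Fitm2 and Bscl2 reach 0.72 and 0.82 at day 7, and Plin3 lies below 0 at every day.

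The knockdown effect itself was compared between days. From day 3 to 7 it grew for Plin1 by 1.02 on the log2 scale (SE 0.17, adjusted p = 3.46e-05), for Bscl2 by 0.68 (SE 0.14, adjusted p = 0.000341), for Plin4 by 0.55 (SE 0.14, adjusted p = 0.00327) and for Fitm2 by 0.52 (SE 0.10, adjusted p = 0.00039), while for Plin2 it moved by -0.39 (SE 0.08, adjusted p = 0.000538). In all, 5 members were called, where 23.1% of all genes were. For Cidec the difference was 0.50 (95% interval 0.09 to 0.92, adjusted p = 0.0742), and for Plin3 it was 0.03 (-0.19 to 0.25). Cidec was called without shRNA 2 day 3 replicate 2 (0.67, adjusted p = 0.00586) or shRNA 2 day 7 replicate 1 (0.64, adjusted p = 0.0132). From day 7 to 11 no member was called (background 12.7%), and limma gave an unadjusted p under 0.05 to 1 member, Plin4 (-0.29, adjusted p = 0.174). The voom fit called 0 as well. Without shRNA 2 day 11 replicate 2 Plin4 was called (-0.39, adjusted p = 0.0407). The intervals of that difference were -0.39 to 0.30 for Plin1 and -0.24 to 0.60 for Cidec, so moderate changes of the effect cannot be told from none. Against day 0, 1, 3 and 3 of the 5 members measured there were called at days 3, 7 and 11 (6.57%, 29.9% and 23.2% of all genes). Fitm2 differed by 0.78 at day 7 and 0.71 at day 11, and Plin4 by 0.70 and 0.42. The day 11 difference of Plin4 was lost without any 1 of 5 libraries (both shRNA 1 replicates or shCtrl replicate 4 of day 0, shRNA 2 replicate 2 or shCtrl replicate 2 of day 11), with an adjusted p from 0.0502 to 0.0688, and Plin2 was called at day 11 without shRNA 1 day 11 replicate 2 (-0.24, adjusted p = 0.0245).

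Plin1, Cidec and Fitm2 were called higher than control with each shRNA at days 3, 7 and 11, and Bscl2 at days 7 and 11, but the levels differed between the shRNAs. At day 7 shRNA 2 libraries held less Plin1 than shRNA 1 libraries (log2 difference -0.51, SE 0.09, adjusted p = 0.000332), less Cidec (-0.53, SE 0.09, adjusted p = 0.00149) and less Fitm2 (-0.36, SE 0.06, adjusted p = 9.45e-05). Against control, Plin1 was 2.33 higher on the log2 scale with shRNA 1 and 1.81 with shRNA 2, and Cidec 2.78 and 2.24. At day 3 Cidec went the other way, being higher with shRNA 2 by 0.58 (SE 0.13, adjusted p = 0.00103). Each shRNA has 2 libraries a day, so without one of them its arm is a single library, assumed to vary like the other groups; this holds for all such values below. The day 3 Cidec call was lost without the filter (adjusted p = 0.0573) and without trend and robust settings (adjusted p = 0.0567). Without shRNA 1 replicate 2 the Cidec difference was 0.42, and without shRNA 2 replicate 2 it was 0.35. For Plin1 the day 3 difference was -0.27 (95% interval -0.57 to 0.04), which leaving out 1 library took from -0.54 (called without shRNA 2 replicate 2, adjusted p = 0.0147) to 0.007 (without shRNA 2 replicate 1, adjusted p = 0.984). At day 11 the shRNAs were not called different for Plin1 (-0.08, 95% interval -0.26 to 0.10) or Cidec (-0.22, -0.52 to 0.08). Without the library labelled shRNA 1 replicate 2, whose Zbtb9 level goes against its label, these were -0.19 and -0.39 (adjusted p = 0.188 and 0.0858), and without shRNA 1 replicate 1 they were 0.04 and -0.05. At day 3 Fitm2 was lower with shRNA 2 than with shRNA 1 (-0.18, adjusted p = 0.00555), a call lost without shRNA 1 replicate 2 or shRNA 2 replicate 1 (adjusted p = 0.0888 and 0.0868). The day 3 call of Fitm2 with shRNA 2 against control (0.11, adjusted p = 0.0441) was lost without either shRNA 1 replicate, shRNA 2 replicate 2 or shCtrl replicates 3 or 4, with an adjusted p from 0.0511 to 0.433. It was also lost with no filter, either rescaling, no trend, 1 fit of all libraries or the replicate number as a block (adjusted p from 0.0696 to 0.227), so it rests on the settings used.

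Plin3 and Plin4 differed between the shRNAs already at day 0. Plin3 stood at 2888 and 2788 normalised reads with shRNA 1, below all control libraries, and at 3600 and 3628 with shRNA 2, within their range. The log2 difference of shRNA 2 from shRNA 1 was 0.34 (SE 0.04, adjusted p = 3.46e-07). On day 7 it was 0.28 (adjusted p = 0.00145; 0.0513 without shRNA 1 replicate 2) and on day 11 it was 0.24 (adjusted p = 0.0117; 0.134 without shRNA 1 replicate 2 and 0.0604 without shRNA 2 replicate 1), and at day 3 it was 0.08 (95% interval -0.04 to 0.20). Against control, Plin3 was lower with shRNA 1 on all 4 days (-0.35, -0.33, -0.40 and -0.36). With shRNA 2 it was called at day 3 (-0.25, adjusted p = 0.000323) and not at day 7 (-0.12, adjusted p = 0.0641) or day 11 (-0.12, adjusted p = 0.0805), though both were called with libraries scaled to equal totals (-0.14 and -0.15, adjusted p = 0.0232 and 0.0427), and the day 7 change without shCtrl replicate 4 (adjusted p = 0.0301).

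For Plin4 the log2 difference of shRNA 2 from shRNA 1 was 0.37 before induction (adjusted p = 2.16e-07). It came to 0.24 on day 3 (adjusted p = 0.00133), to 0.11 on day 7 (95% interval -0.03 to 0.24) and to 0.39 on day 11 (adjusted p = 0.00406). The day 3 call was lost without the filter (adjusted p = 0.0532) and without trend and robust settings (adjusted p = 0.0859). Single libraries mattered: without shRNA 2 replicate 2 the adjusted p was 0.0885 at day 3 and 0.0627 at day 11, without shRNA 1 replicate 2 it was 0.0508 at day 11, and the day 7 difference was called at 0.22 without shRNA 2 replicate 1 (0.0476) but was -0.002 without shRNA 2 replicate 2 (0.988). Against control, shRNA 1 moved Plin4 by -0.48, -0.26 and 0.36 at days 0, 3 and 7, all called, and by -0.07 at day 11 (adjusted p = 0.497). With shRNA 2 it was called at days 7 and 11 (0.47 and 0.32), but not at day 11 when shRNA 2 replicate 2 was left out (0.21, adjusted p = 0.0954). Bscl2 was called with shRNA 1 at day 0 (0.41, adjusted p = 0.00594), without a called difference between the shRNAs (-0.29, adjusted p = 0.0996), and Plin2 with shRNA 2 (-0.12, adjusted p = 0.0287). Both day 0 calls were lost without 1 library, the Bscl2 call without shRNA 1 replicate 1 (adjusted p = 0.112) and the Plin2 call without either shRNA 2 replicate or shCtrl replicate 1 (adjusted p from 0.062 to 0.245). Without shCtrl replicate 1, Plin4 was called with shRNA 2 at day 0 (-0.13, adjusted p = 0.0215). Between the shRNAs, 2 of the 5 members measured at day 0 and 3, 4 and 2 of the 7 at days 3, 7 and 11 were called, where 34.7%, 19.4%, 16.2% and 21.7% of all genes were.

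**Figure D3:**
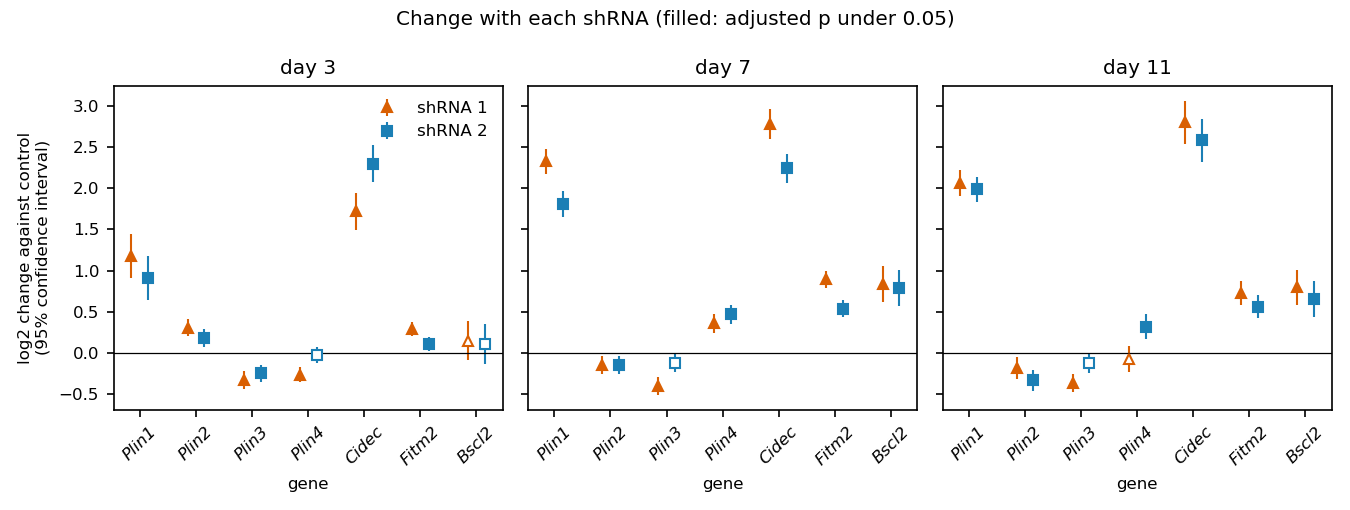
Log2 change of each shRNA against the same control libraries (y axis, 95% confidence intervals) for the 7 members tested (x axis) at days 3, 7 and 11; triangles are shRNA 1, squares shRNA 2 (2 libraries each), and filled points have an adjusted p under 0.05. At day 7 Plin1, Cidec and Fitm2 are higher with shRNA 1 (2.33, 2.78 and 0.90) than with shRNA 2 (1.81, 2.24 and 0.54), and Plin3 is lower.

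Levels of different genes were set side by side as normalised reads per kb of annotated exon (per-kb level). In control cells at day 11 the order was Plin2 (2960 ± 181, SD, n = 4), Plin4 (2491 ± 133), Plin3 (1207 ± 41.2), Fitm2 (373 ± 19.1), Cidec (287 ± 39.5), Plin1 (285 ± 22.8) and Bscl2 (28.8 ± 1.499). The ranges of Cidec and Plin1 overlapped there, and those of the other neighbours did not. In knockdown cells at day 11 the ranges of Plin4 (2761 ± 507), Plin2 (2465 ± 190) and Cidec (1983 ± 291) overlapped. They were followed by Plin1 (1219 ± 94.0), Plin3 (1018 ± 106), Fitm2 (596 ± 59.7) and Bscl2 (51.6 ± 4.12), whose ranges overlapped neither each other nor those above. At day 7 Cidec was the highest member in the knockdown, at 8388 ± 1938 per kb against 3592 ± 292 for Plin4, while in control it stood at 1367 ± 102, overlapping Plin3 (1414 ± 65.6). Bscl2 had the lowest mean of the 7 from day 3 on in both arms.

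The same scale gives each perilipin's share of the summed perilipin level, described here without a test. In control cells Plin1 made up 1.23% ± 0.10 (SD, n = 4) at day 3, 4.99% ± 0.41 at day 7 and 4.11% ± 0.31 at day 11. In knockdown cells it made up 2.55% ± 0.42, 17.99% ± 3.82 and 16.4% ± 1.59, and the arms did not overlap on any of these days. The share of Plin2 was lower in the knockdown at the later days: 34.9% ± 2.18 in control and 25.4% ± 0.90 in the knockdown at day 7, and 42.6% ± 2.52 and 33.2% ± 4.35 at day 11. The share of Plin3 was 20.8% ± 0.61 and 14.02% ± 1.85 at day 7 and 17.4% ± 0.61 and 13.6% ± 0.86 at day 11. Plin4 held 39.3% ± 2.03 in control and 42.6% ± 2.26 in the knockdown at day 7, with overlap. At day 3 Plin2 was the main perilipin in both arms, with 55.5% ± 1.70 and 62.2% ± 2.67. The summed level at day 7 was 6794 ± 172 in control and 8427 ± 361 in the knockdown, and each share depends on the other perilipins.

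**Figure D4:**
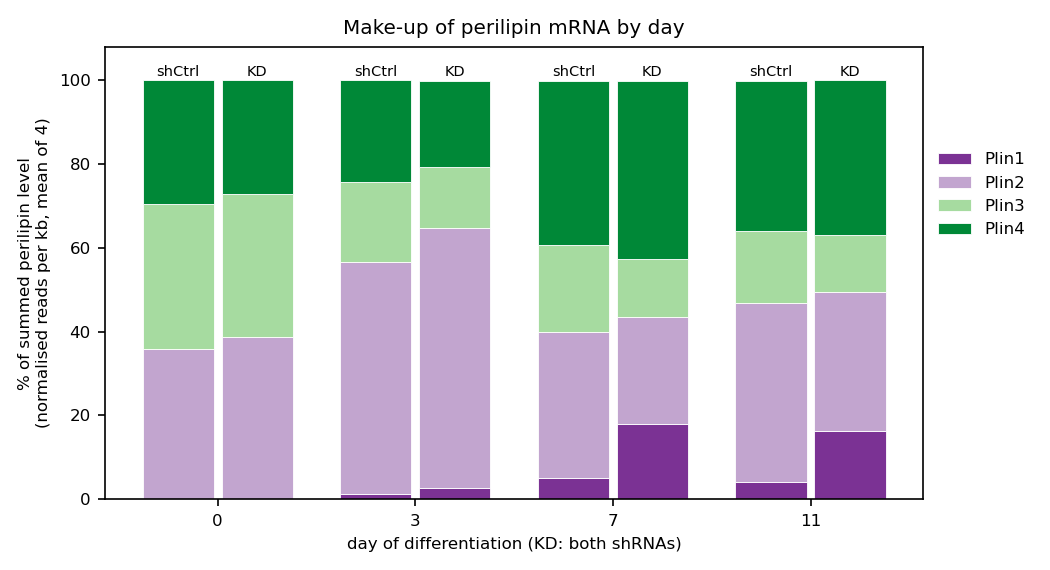
Mean share (y axis, % of the summed normalised reads per kb of Plin1 to Plin5; Plin5 is too low to see) in 4 shCtrl and 4 knockdown (KD) libraries at each day (x axis). The Plin1 band is 4.99% in control and 17.99% in knockdown cells at day 7, and the Plin2 band is 34.9% and 25.4%.

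Other genes of droplet formation were read from a list of assembly partners and glycerolipid enzymes, 17 of which were tested. At days 3, 7 and 11, 8, 9 and 7 of them were called higher and 0, 3 and 0 lower, where 14.6%, 24.9% and 16.8% of all genes were called higher and 12.1%, 22.6% and 16.2% lower. The 3 lower at day 7 are near that background. At days 3 and 11, limma gave 1 and 2 of the 17 an unadjusted p under 0.05 in the lower direction. Their median log2 change was 0.15, 0.26 and 0.11. At day 3 the largest rises were those of Dgat2, which makes triglyceride (8692 ± 929 against 3126 ± 91.9 normalised reads, SD, n = 4 each, log2 change 1.42, adjusted p = 1.8e-08), and Gpat3, which starts glycerolipid synthesis (1.35, adjusted p = 5.92e-09). At day 7 they were Adig, which encodes the seipin partner adipogenin (493 ± 87.8 against 74.1 ± 15.5, log2 change 2.36, adjusted p = 2.8e-09), and Gpat3 (1.97). The largest falls at day 7 were those of Pcyt1a, an enzyme of phosphatidylcholine synthesis (-0.50, adjusted p = 0.00256), and Spg20, which encodes spartin (-0.32). At day 11 Adig (2.15) and Lpin1, a phosphatidate phosphatase (1.73, adjusted p = 2.56e-08), rose most.

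The other list held further droplet surface proteins, with 20 tested, of which 6, 9 and 8 were called higher and 3, 4 and 1 lower at days 3, 7 and 11. Read against the same shares of all genes, the lower calls at days 3 and 7 are near background. Their medians were 0.07, 0.09 and 0.01. G0s2, an inhibitor of the lipase ATGL, was the largest rise on all 3 days (1.31, 2.21 and 2.40), with 280 ± 43.4, 2244 ± 197 and 1016 ± 81.0 normalised reads in the knockdown against 100.5 ± 13.7, 445 ± 54.6 and 171 ± 21.9. Next came Aifm2 at day 3 (0.81, adjusted p = 0.00468), Lipe, the hormone-sensitive lipase, at day 7 (2.06, adjusted p = 6.94e-12) and Hilpda, another ATGL inhibitor, at day 11 (2.18, adjusted p = 4.57e-05). The largest falls were those of Hsd17b11 (-0.46 at day 3 and -0.35 at day 7), Mettl7a1 (-0.36 and -0.44) and, at day 11, Rab7 (-0.18, adjusted p = 0.0141).

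Over the means of the 12 groups of arm and day, the members did not share 1 course. Plin1 and Cidec were alike (Pearson r = 0.97 on deposited log2 means), and Plin1 and Plin3 less so (0.40). For Fitm2 and Plin3 r was -0.33. The genes most like each member were Aldoa, Gys1 and Sema3g for Plin1 (r from 0.9933 to 0.9966), G0s2, Retn and Ndufv3 for Cidec (0.9873 to 0.993), Abhd5, Rgs2 and Nfil3 for Fitm2 (0.9891 to 0.9901), Wbp2, Ost4 and Dhx40 for Plin4 (0.9854 to 0.9931), Kif1c, Mapk3 and Pik3ip1 for Plin3 (0.9817 to 0.9892), Tgfb1, Fbxl5 and Txndc17 for Plin2 (0.9588 to 0.9683), and Grsf1, Tmem170b and Fbxo45 for Bscl2 (0.9712 to 0.9831). The 12 means share libraries between genes and follow the same days, so r is a description and has no p.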

How the data were processed

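RNA of 32 libraries was read on the log2 scale: the authors deposited 1 table of log2 values per gene, of regularised-log form by their values, from -1.56 to 17.99. Per the submitters' processing notes the tools were TopHat2 2.1.0, Bowtie2 2.2.6, SAMtools 1.3.1 and HTSeq 0.6.1; the build, annotation, strand setting and transform are not given in the sources used here. That form pulls low genes towards their mean, so their log2 changes are understated.

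Inverting it rebuilt whole reads: 99.31% of values lay within 0.1 of a whole number, and 94.69% of genes did so in every library. Of the 9 members 8 did, and Cidec did in 29 libraries (largest distance 0.208). All 32 replicate pairs differed by more than sampling noise (chi-square per degree of freedom 3.001 to 11.755). Reads carry no molecular identifiers, so the floor of 3 reads covers counting error only.

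Tests used limma 3.58.1 in R 4.3.3, with trend and robust settings, on genes with 2 to the power of the value at least 10 in at least 4 libraries (2 where the shRNAs were separate groups). The Benjamini-Hochberg adjustment ran over all genes tested, and calls have an adjusted p under 0.05. The pipeline was also run on simulated reads in which both shRNAs had the same effect, so that run does not cover differences between them. Alternatives were no filter, a filter of 50, 2 rescalings, no trend, log2 of rebuilt normalised reads + 1, voom on rebuilt reads, 1 fit of all libraries, separate shRNAs, a replicate block and leaving out each library (where this leaves an arm with 1 library, the other groups supply the spread). Zbtb9 was tested with an exact permutation test and with limma.

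Named genes were all members whatever their values, Zbtb9, up to 2 rises and 2 falls per list (the largest among called genes whose groups did not overlap), and the 3 genes best correlated with each member. The members and lists were chosen with earlier results of these data known. Positions and exon lengths come from GENCODE M21 (GRCm38), which matched 20532 of 20560 identifiers.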

Additional observations from a re-analysis of the deposited data

Results flagged for a closer look

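Among 58 groups of 4 libraries with at least 10 reads in the highest, 2 held a library set apart from the other 3, by a gap over the group's range above Dixon's 95% critical value for 4 values. Chance flags about 1 in 20 groups. For Plin4 at day 7 the knockdown library shRNA 2 replicate 2 was high, at 23280 normalised reads against 19840 to 19996 (gap over range 0.951). For Fitm2 at day 7 control replicate 2 was low, at 2491 against 2602 to 2613 (gap over range 0.912).

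The knockdown effect differed between days, by limma's test of the difference on the log2 scale, for these members. From day 0 to 3 it moved by 0.312 for Plin2 (adjusted p = 0.015). From day 0 to 7 it moved by 0.705 for Plin4 (adjusted p = 0.000188), 0.776 for Fitm2 (adjusted p = 6.33e-07) and 0.548 for Bscl2 (adjusted p = 0.00223). From day 0 to 11 it moved by 0.417 for Plin4 (adjusted p = 0.0253), 0.706 for Fitm2 (adjusted p = 4.96e-06) and 0.46 for Bscl2 (adjusted p = 0.012). From day 3 to 7 it moved by 1.023 for Plin1, -0.391 for Plin2, 0.555 for Plin4, 0.52 for Fitm2 and 0.68 for Bscl2, with adjusted p from 3.46e-05 to 0.00327.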

How the results depend on the processing

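With the shRNAs as separate groups, 3 members (Plin3, Plin4 and Bscl2) and 3340 genes were called at day 0 (430 genes in the joint group), and 5311 genes at day 3 (3506). Without trend and robust settings 261 genes were called at day 0, and between the shRNAs 0 members and 1423 genes at day 3, 1018 genes at day 7 and 1 member and 2092 genes at day 11. Without a filter, 1 member and 1710 genes were called between the shRNAs at day 3. With voom on rebuilt reads the knockdown effect differed from day 0 for 1, 3 and 3 members at days 3, 7 and 11, with 817, 3956 and 3072 of 13571 genes called. Over the 5 members measured at day 0 this is the count of the reported fit; Plin1 and Cidec, under 10 reads there, were no longer called (for Plin1 at day 3 the value reversed, to -0.346, adjusted p = 0.931). The cause of these changes was not tested.

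Whether replicate numbers pair the libraries was not settled. Deviations of same-numbered libraries from their group means correlated by -0.0052 to 0.2149 between arms (3 of 24 above 0.1). Between days they correlated by -0.0941 to 0.1193 (5 of 48). Where both groups hold 2 libraries, replicates 1 and 2 give the same value by construction, so these counts hold repeats. The 3 were all at day 11, where the 6 values were all positive (0.0038 to 0.2149). The 5 were all between days 7 and 11 (-0.0941 to 0.1193 over 8). With the number as a replicate block, knockdown against control called 0, 845, 4112 and 1652 genes at days 0, 3, 7 and 11, against 430, 3506, 6328 and 4382, and 2 members at day 3. The calls of Plin2 and Plin3 were then lost at days 3, 7 and 11, that of Fitm2 at day 3 and that of Zbtb9 at day 7 (-0.329, adjusted p = 0.119).

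Leaving out 1 library gave 111 to 562 genes and 0 to 1 members for the knockdown at day 0, and 0 to 1 members and 1356 to 1836 genes for the change of its effect from day 7 to 11. Between the shRNAs it gave 1628 to 2589 genes and 1 to 3 members at day 3, 1005 to 2381 genes and 3 to 5 members at day 7, and 1487 to 2927 genes and 0 to 2 members at day 11. Over all settings, 451 of the member counts stayed within 1.5 times and 14 did not, and of single-gene values 4120 kept their call and direction, 33 gained a call, 96 lost one and 1 reversed. Depth limits Plin5 and Fitm1 on all days and Plin1 and Cidec at day 0.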
